A study of Mus musculus with 4 samples.

Results

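Described here are 5 genes of a cell-surface protease system of the epidermis in cultured mouse keratinocytes: F2rl1, which encodes protease-activated receptor 2 (PAR2), St14, which encodes matriptase, Prss8, which encodes prostasin, and Spint1 and Spint2, which encode the protease inhibitors HAI-1 and HAI-2. They were taken by gene symbol and chosen by their measured values, since the scaled counts of these same libraries across the 4 groups were known when the set was put together. All 5 are among the 13102 genes of the deposited tables, and all 5 passed the filter of a mean level of at least 1 CPM, which 12934 genes passed. CPM means counts-per-million, here relative to a size scaled by the trimmed mean of M-values (TMM). Because the groups' values chose the genes, the values below are a description and carry no test.

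RNA was sequenced from primary keratinocytes of the epidermis of newborn C57BL/6 mice, kept in culture for 48 h in 154CF medium with the HKGS growth supplement. The groups were Il17rc knockout (KO) cells with interleukin-17A (IL-17A), Il17rd KO cells with IL-17A, wild-type (WT) cells with IL-17A, written IL-17A WT, and untreated WT cells, so that both knockouts carry the cytokine. IL-17A, which drives inflammation of the skin, was given at 100 ng/mL for 8 h. Both deleted genes belong to the IL-17 receptor family, and the series asks, by its title, whether Il17rd is an alternative receptor for IL-17A in psoriasis-like skin inflammation. Each group is 1 library, and the sources used here do not give how many mice supplied the cells, their sex, or which piece of each gene was deleted. Untreated cells of either knockout were not analysed here, so an effect of genotype and an effect on the IL-17A response cannot be told apart.

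Protease-activated receptors are G protein-coupled receptors that carry their own ligand: a protease cuts the extracellular end of the receptor, and the new end folds back and activates it. Matriptase spans the keratinocyte membrane and prostasin is held there by a lipid anchor, and in mouse skin both are required for formation of the barrier and for the processing of filaggrin, with each able to promote activation of the other. HAI-1 and HAI-2 are membrane proteins with Kunitz domains that bind and block these proteases, and PAR2 is one of the receptors that matriptase can cut. Matriptase left unchecked by HAI-1 harms mouse skin, partly through PAR2.

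The sequences around the cuts that switch the receptor and the proteases on are shown for F2rl1, St14 and Prss8. Each is a coding stretch of 54 bases read 5′ to 3′ from a GENCODE M21 transcript on GRCm38, with 8 codons before the cut. Capitals mark the first codons after the cut: the 6 codons of the tethered ligand in F2rl1, and 4 codons of the new end of the protease domain in St14 and Prss8.
F2rl1: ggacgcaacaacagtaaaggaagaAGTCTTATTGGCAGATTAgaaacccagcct
St14: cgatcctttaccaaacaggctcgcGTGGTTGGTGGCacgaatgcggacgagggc
Prss8: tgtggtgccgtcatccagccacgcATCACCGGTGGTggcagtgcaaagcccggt
In F2rl1 the cut follows residue 38 of 399, and the stretch runs over the junction of exons 1 and 2 of 2 on the minus strand, within chr13:95514229-95525037. In St14 it follows residue 614 of 855, in exon 16 of 19, at chr9:31095657-31095710 on the minus strand. In Prss8 it follows residue 44 of 339, in exon 3 of 6, at chr7:127927913-127927966 on the minus strand. Set side by side, the St14 and Prss8 stretches have the same base at 23 of 54 positions and the same residue at 6 of 18.

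The genes lie apart from each other on GRCm38. F2rl1 spans chr13:95511732-95525227 on the minus strand and St14 spans chr9:31089402-31131853 on the minus strand. Spint1 spans chr2:119237362-119249527 on the plus strand. Prss8 at chr7:127925716-127930104 and Spint2 at chr7:29256323-29281912 share a chromosome and the minus strand. The end of Prss8 overlaps that of Kat8, a gene of the opposite strand at chr7:127912516-127925837, and St14 overlaps Gm16071, a processed pseudogene of the opposite strand. The sources used here do not say whether counting used the strand, so reads inside these overlaps cannot be assigned. None of the 5 genes had another annotated gene matching at 95% identity over 50% of its length.

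The libraries held between 19711866 and 19904695 counts over the deposited genes. Il17rd had 150 counts in Il17rc KO, 5 in Il17rd KO, 265 in IL-17A WT and 252 in untreated WT, and parts of it match other annotated genes. Il17rc had 439, 1718, 1152 and 2729 counts in the same order, so its RNA was still counted in its own knockout. The Y-linked gene Ddx3y had 749, 2, 233 and 654 counts and Xist had 2668, 8513, 4750 and 2420, so the libraries also differed in sex-linked RNA, which with 1 library a group cannot be told apart from genotype and treatment. All 7 basal keratinocyte markers and all 8 melanocyte markers were detected in every library, as were 8 of 8 differentiating markers, 8 of the 10 fibroblast markers, 4 of the 8 immune markers and 2 of the 5 endothelial markers. Summed over the list, basal markers were at 31926, 35542, 32203 and 41123 CPM, and differentiating markers at 2261, 2719, 552 and 6191 CPM. Melanocyte markers were at 2088, 2260, 1640 and 2489 CPM, and immune markers at 6.58, 23.0, 24.5 and 52.9 CPM. Fibroblast markers were at 152, 187, 190.4 and 232 CPM, most of it from Vim, a gene not limited to fibroblasts and singled out after its values were seen, and the other 7 summed to 26.3, 37.2, 9.45 and 52.3 CPM. In bulk cultures fewer cells of a type and less RNA per cell cannot be told apart.

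The receptor gene F2rl1 was high in 2 of the 3 libraries with IL-17A and low in the other. It had 4171 counts in Il17rc KO, 1431 in Il17rd KO, 4362 in IL-17A WT and 1699 in untreated WT. On the CPM scale, with exact 95% Poisson intervals that cover counting error only, its level was 208.0 (202 to 214) in Il17rc KO and 69.7 (66.1 to 73.4) in Il17rd KO. It was 223 (216 to 229.6) CPM in IL-17A WT and 88.6 (84.5 to 92.9) CPM in untreated WT. The levels thus ran from IL-17A WT through Il17rc KO and untreated WT to Il17rd KO, with the counting intervals of IL-17A WT and Il17rc KO next to each other but not overlapping. The Il17rd KO library, lowest in F2rl1, is also the one with 2 counts of Ddx3y and 8513 of Xist, and the part of this in the result was not tested. Reads lack molecular identifiers and so are not independent molecules, and the spread between cultures is not known with 1 library a group.

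**Figure D1:**
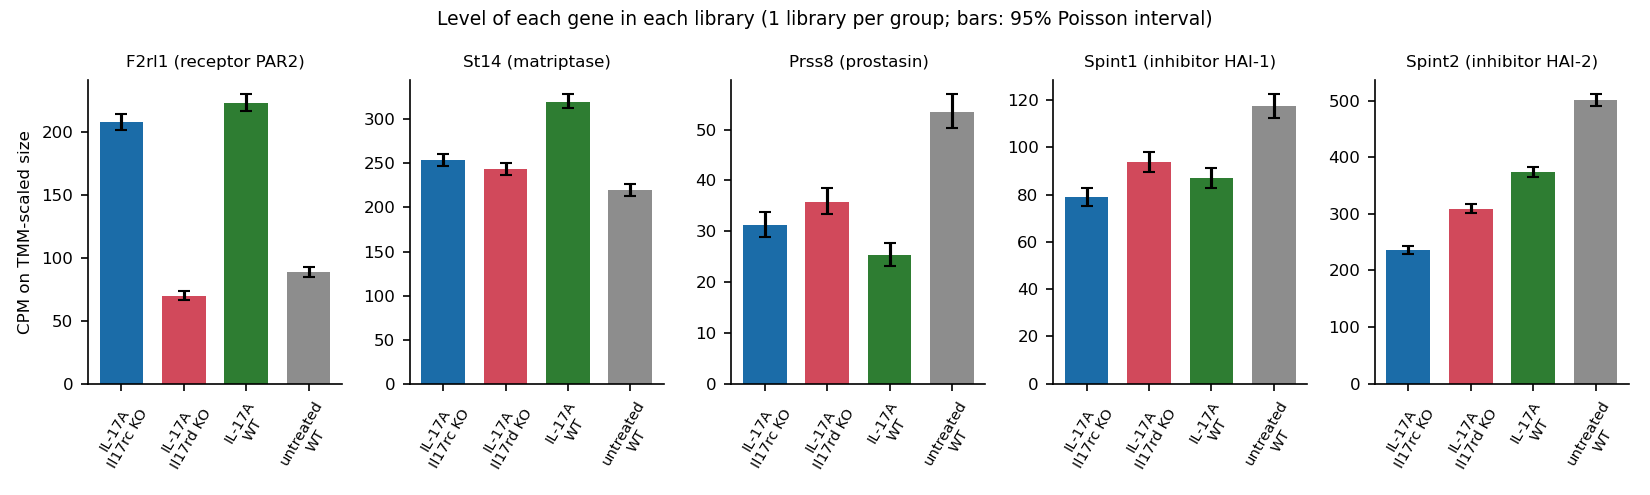
Level of each of the 5 genes in CPM on the scaled library size (vertical axis, from 0) in the 4 libraries, 1 bar per library, with exact 95% Poisson intervals of the count as error bars. F2rl1 is at 208.0 and 223 CPM in Il17rc KO and IL-17A WT and at 69.7 and 88.6 CPM in Il17rd KO and untreated WT.

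F2rl1 was 2.51-fold higher in IL-17A WT than untreated WT (exact 95% conditional binomial interval of the counts 2.38 to 2.66). A gene is called higher or lower here when the ratio is at least 2-fold and this interval leaves out 1, and with no replicates the call describes a pair of libraries. Among the 12934 genes, 8.97% were called higher and 10.7% lower in this comparison, and of the 5 genes 1 was called higher, 1 lower and 3 neither way. Their median log2 ratio was -0.42, against 0.0041 for all genes. There were 678 genes with a larger ratio than that of F2rl1.

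In Il17rc KO cells F2rl1 was at 0.933 times its level in IL-17A WT cells (0.894 to 0.974). No gene of the 5 was called in this comparison, in which 6.22% of all genes were called higher and 4.84% lower, and the median log2 ratio was -0.14, against 0.042 for all genes. With libraries scaled by their totals the ratio of F2rl1 was 0.961 with an interval of 0.920 to 1.0025, so a difference between these libraries was not clear of counting error under that scaling. The difference is small beside the calls, but 1 library of each kind does not show that the cells are alike in F2rl1.

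In Il17rd KO cells F2rl1 was 3.20-fold lower than in IL-17A WT cells (3.01 to 3.40). It was the only call among the 5 genes, where 6.27% of all genes were called higher and 3.73% lower, and 168 genes had a lower ratio. The 5 genes' median log2 ratio was -0.28, against 0.011 for all genes. The knockouts set against each other gave a ratio for F2rl1 2.99-fold higher in Il17rc KO than in Il17rd KO (2.81 to 3.17). In that comparison 1.49% of genes were called higher and 2.75% lower, 65 genes had a larger ratio, and F2rl1 was again the only call among the 5, whose median log2 ratio was -0.20, against 0.017 for all genes.

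Against untreated WT, F2rl1 was 2.35-fold higher in Il17rc KO (2.22 to 2.48) and at 0.786 times the untreated level in Il17rd KO (0.732 to 0.844). For Il17rc KO against untreated WT 7.27% of genes were called higher and 7.0% lower, and of the 5 genes F2rl1 was called higher and Spint2 lower. For Il17rd KO against untreated WT 5.36% of genes were called higher and 3.35% lower, and none of the 5 was called. Of the calls in this last comparison 61.5% were higher, and 71.8% were with scaling by library totals, which moves all its log2 ratios up by 0.113. The 6 comparisons share libraries, IL-17A WT being in 3 of them, so they are not independent of each other.

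**Figure D2:**
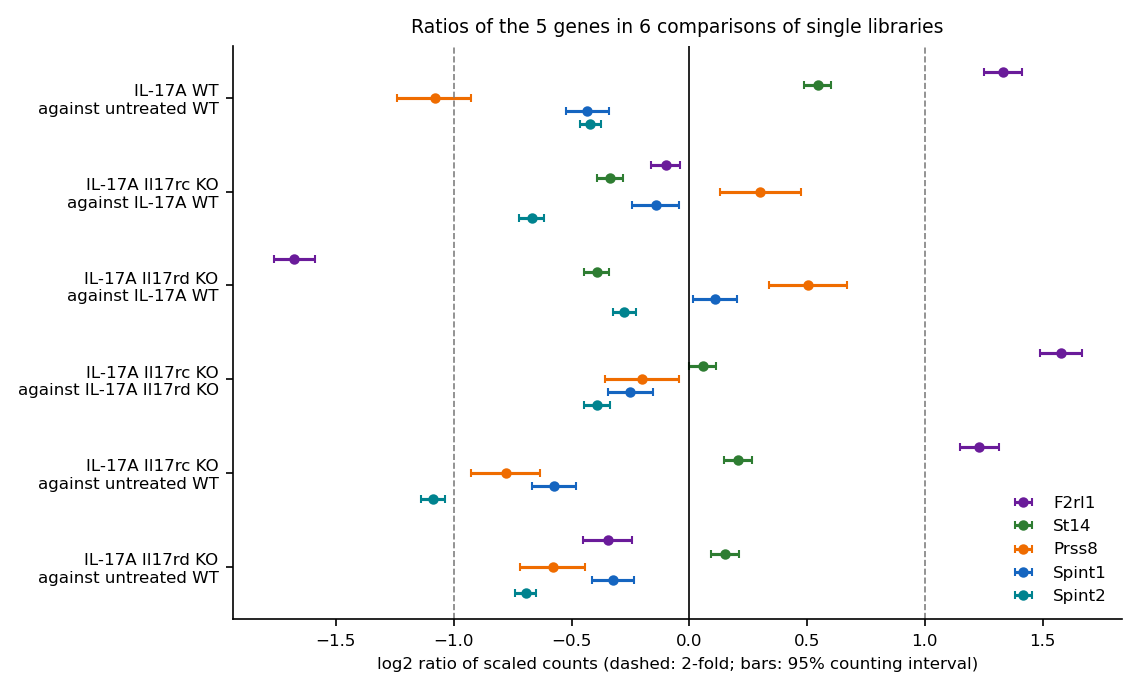
Log2 ratio of each gene (horizontal axis, 0 is no difference) in the 6 comparisons, with exact 95% conditional binomial intervals of the counts. F2rl1 lies beyond 2-fold in 4 comparisons, at ratios of 2.51, 2.99 and 2.35 on the higher side and 3.20-fold on the lower side, while St14 and Spint1 lie within 2-fold in all 6.

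Of the 1160 genes called higher in IL-17A WT than untreated WT, F2rl1 was among 102 (8.79%) called lower than in IL-17A WT in Il17rd KO and not in Il17rc KO. Another 109 (9.40%) were called lower in Il17rc KO and not in Il17rd KO, 248 (21.4%) in both and 701 (60.4%) in neither. Taking in the call between the knockouts as well, 26 of the 12934 genes (0.201%) had the same calls as F2rl1 in the 4 comparisons that do not set a knockout against untreated WT. These shares describe how common the pattern was, and since F2rl1 was chosen with it in view they say nothing further about the gene.

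**Figure D3:**
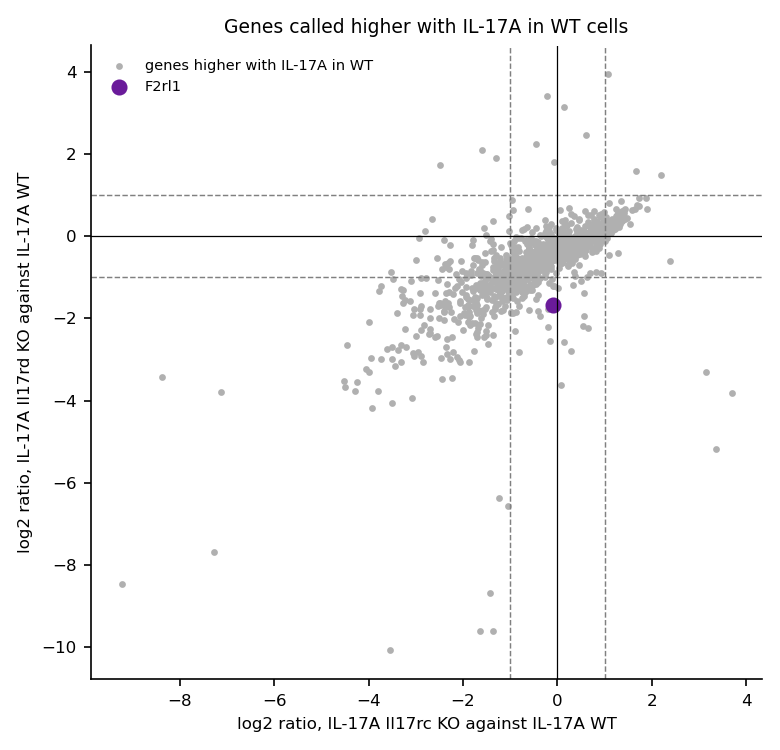
Log2 ratio to IL-17A WT in Il17rc KO (horizontal axis) against that in Il17rd KO (vertical axis) for the 1160 genes called higher in IL-17A WT than untreated WT, 1 grey point per gene with F2rl1 in purple. Dashed lines mark 2-fold, and both axes share the IL-17A WT library. F2rl1 lies near 0 on the horizontal axis, at a ratio of 0.933, and low on the vertical one, at 0.313.

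The genes nearest to F2rl1 in pattern were sought among 8903 genes averaging 10 CPM or more, by the root mean square difference of log2 CPM after centring each gene over the 4 libraries. They were Atp6v1c2, a subunit of the proton pump of acidic compartments, at 0.197, Vdac3, a channel of the outer mitochondrial membrane, at 0.205, and Nrp1, a co-receptor for semaphorins and vascular growth factors, at 0.264. Atp6v1c2 had 427 counts in Il17rc KO, 171 in Il17rd KO, 445 in IL-17A WT and 241 in untreated WT. Vdac3 had 1656, 830, 2133 and 914 counts in the same order, and Nrp1 had 343, 165, 393 and 219. All 3 had their higher values in the same 2 libraries as F2rl1, but over only 4 libraries many patterns resemble each other.

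F2r, which encodes the thrombin receptor PAR1 and is the annotated gene on one side of F2rl1, did not have that pattern. It had 197 counts in Il17rc KO, 300 in Il17rd KO, 300 in IL-17A WT and 280 in untreated WT, and was called in none of the comparisons. Per length of transcript F2r was at 2.94, 4.37, 4.59 and 4.37 FPKM (fragments scaled to transcript length and library size, as the authors deposited them), and F2rl1 at 75.7, 25.4, 81.2 and 32.3 FPKM. F2rl1 was thus the more abundant of these receptor transcripts in all 4 libraries.

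Of 18 genes of signal transmission from PAR2 (G proteins, phospholipases, arrestins and kinases), 15 passed the filter. For IL-17A WT against untreated WT 0 were called higher and 1 lower, where 8.97% and 10.7% of all genes were. The 1 was Arrb1, an arrestin that binds activated receptors, with 52 and 114 counts. None was called for Il17rc KO against IL-17A WT, where 6.22% of all genes were higher and 4.84% lower. For Il17rd KO against IL-17A WT Gnai1, an inhibitory G protein subunit, was the 1 called higher, with 1044 against 476 counts. No gene of the list was called lower there, where 6.27% of all genes were higher and 3.73% lower. The median log2 ratios of the list were -0.048, 0.037 and -0.036 in these comparisons, beside all genes' 0.0041, 0.042 and 0.011. Stretches of Gnaq, Gna13 and Grk5 of the list match other annotated genes elsewhere, which can make their counts uncertain.

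St14, the matriptase gene, differed less between libraries than F2rl1 and was called in no comparison. It had 5083 counts in Il17rc KO, 5006 in Il17rd KO, 6266 in IL-17A WT and 4208 in untreated WT. That is 253, 244, 320.2 and 219.5 CPM, with the highest level in IL-17A WT and the lowest in untreated WT. The knockouts lie between them and next to each other: St14 in Il17rc KO was at 1.04 times its level in Il17rd KO, with an interval of 0.99996 to 1.08 that takes in 1.

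St14 was 1.46 times as high in IL-17A WT as in untreated WT (1.40 to 1.52). It was at 0.792 times the IL-17A WT level in Il17rc KO (0.763 to 0.822) and at 0.761 times in Il17rd KO (0.733 to 0.790). Both knockouts stayed above untreated WT, at 1.15 (1.11 to 1.20) and 1.11 (1.07 to 1.16). St14 outranked between 93.5% and 96.1% of the 12934 genes by CPM in the 4 libraries. The genes most like it in pattern were Snap23, of membrane fusion, at a root mean square difference of 0.0170, Fubp3, which binds single-stranded nucleic acid, at 0.0192, and Dgkd, a diacylglycerol kinase, at 0.0215.

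Prss8, the prostasin gene, was lowest where St14 was highest. It had 625 counts in Il17rc KO, 736 in Il17rd KO, 495 in IL-17A WT and 1026 in untreated WT. That is 31.2, 35.8, 25.3 and 53.5 CPM, and the knockouts lie between IL-17A WT and untreated WT for this gene too. Prss8 was 2.12-fold lower in IL-17A WT than untreated WT (1.90 to 2.36), which was the 1 call for lower among the 5 genes there. By the same calls in the 4 comparisons that do not set a knockout against untreated WT, 555 genes (4.29%) were like it.

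In the knockouts Prss8 stood above IL-17A WT, at 1.23 times in Il17rc KO (1.09 to 1.39) and 1.42 times in Il17rd KO (1.26 to 1.59), neither of them called. Against untreated WT it was 1.72-fold lower in Il17rc KO (1.55 to 1.90) and 1.49-fold lower in Il17rd KO. Between the knockouts it was at 0.870 times in Il17rc KO relative to Il17rd KO (0.781 to 0.969). Prss8 outranked 53.1%, 57.0%, 48.7% and 67.7% of genes in Il17rc KO, Il17rd KO, IL-17A WT and untreated WT. Hadhb, of mitochondrial fatty acid oxidation, Enpp2, the enzyme autotaxin, and Reep4, of the endoplasmic reticulum, were the most like it, at 0.0217, 0.0283 and 0.0283.

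The order of the libraries in Prss8, with IL-17A WT lowest, the knockouts between and untreated WT highest, was also that of the markers of differentiating keratinocytes. For IL-17A WT against untreated WT 0 of those 8 markers were called higher and 7 lower, where 8.97% of all genes were higher and 10.7% lower. The markers' median was -3.39 on the log2 scale, beside 0.0041 for all genes, and their summed levels were the 552 and 6191 CPM given above. In each knockout against IL-17A WT 7 were called higher and 0 lower, with medians of 2.55 in Il17rc KO and 2.56 in Il17rd KO. All genes had 6.22% higher and 4.84% lower in the Il17rc KO comparison (median 0.042), and 6.27% higher and 3.73% lower in the Il17rd KO comparison (median 0.011). The 7 basal markers had 0 called higher and 2 lower for IL-17A WT against untreated WT, and the 8 epithelial junction markers had no call in any of the comparisons. The summed junction markers still had the order of Prss8, at 13034, 13052, 10753 and 18570 CPM in Il17rc KO, Il17rd KO, IL-17A WT and untreated WT. So did the melanocyte markers and the fibroblast markers other than Vim, while basal and immune markers were lowest in Il17rc KO. The order was thus not particular to differentiating cells. The part of the differentiating cells in the Prss8 result was not tested.

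The inhibitor genes Spint1 and Spint2 were both highest in untreated WT. Spint1, for HAI-1, had 1581 counts in Il17rc KO, 1926 in Il17rd KO, 1702 in IL-17A WT and 2250 in untreated WT, which is 78.8, 93.8, 87.0 and 117 CPM. Spint2, for HAI-2, had 4722, 6351, 7323 and 9597 counts in the same order, which is 235, 309, 374 and 500.6 CPM. Both genes were lowest in Il17rc KO, but Il17rd KO lies above IL-17A WT for Spint1 and below it for Spint2.

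Spint1 was 1.35-fold lower in IL-17A WT than untreated WT (1.27 to 1.44), and Spint2 was 1.34-fold lower (1.30 to 1.38), neither called. Spint1 was at 0.907 times the IL-17A WT level in Il17rc KO (0.846 to 0.971) and at 1.08 times in Il17rd KO (1.01 to 1.15). Scaling by upper quartiles gave 1.06 for Spint1 in Il17rd KO with an interval of 0.997 to 1.14, so that difference was not clear of counting error. Spint2 was 1.59-fold lower in Il17rc KO than in IL-17A WT, at a ratio of 0.629 (0.607 to 0.653), and at 0.826 times in Il17rd KO (0.799 to 0.855).

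Against untreated WT, Spint2 was 2.13-fold lower in Il17rc KO (2.05 to 2.20), the only call for either inhibitor, and 1.62-fold lower in Il17rd KO (1.57 to 1.67). Spint1 was 1.49-fold lower in Il17rc KO and at 0.799 times in Il17rd KO. Between the knockouts both were lower in Il17rc KO than in Il17rd KO, Spint1 at 0.841 times (0.786 to 0.899) and Spint2 at 0.762 times (0.733 to 0.791). By CPM Spint2 outranked between 94.2% and 98.0% of genes and Spint1 between 76.4% and 84.8%.

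The promoters of the inhibitor genes are shown because RefSeq windows were matched by symbol for only 2 of the 5 genes, Spint1 and Spint2. No window was found for F2rl1, St14 or Prss8. Spint1 and Spint2 were lower in all 3 libraries with IL-17A than in untreated WT, and so was Prss8. Each run is the 250 bases before the RefSeq start of the gene on GRCm38.p6, 5′ to 3′ on the strand of the gene. The RefSeq starts differ from the GENCODE positions given above, in which Spint2 starts at 29281912. Spint1 is at chr2:119237110-119237359 on the plus strand and Spint2 at chr7:29281978-29282227 on the minus strand. Capitals mark matches, on either strand, to the GC box GGGCGG and the ETS motif GGAAGT.
Spint1: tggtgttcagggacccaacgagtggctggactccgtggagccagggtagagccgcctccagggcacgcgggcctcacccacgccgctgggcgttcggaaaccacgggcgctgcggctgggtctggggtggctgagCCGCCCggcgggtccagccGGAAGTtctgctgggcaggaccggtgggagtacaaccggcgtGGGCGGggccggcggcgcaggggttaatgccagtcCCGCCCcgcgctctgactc
Spint2: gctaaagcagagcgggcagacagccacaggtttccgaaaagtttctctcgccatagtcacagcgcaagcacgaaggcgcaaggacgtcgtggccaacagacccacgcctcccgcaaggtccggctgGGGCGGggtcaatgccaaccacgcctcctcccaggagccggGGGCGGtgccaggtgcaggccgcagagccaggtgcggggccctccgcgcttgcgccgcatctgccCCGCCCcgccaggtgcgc
The Spint1 window holds 3 matches to GGGCGG and 1 to GGAAGT, and is 72.8% G or C. The Spint2 window holds 3 matches to GGGCGG and is 69.6% G or C. Neither window holds the AP-1 motif TGANTCA or the grainyhead motif AACNNGTT, also searched on both strands, which says only that these letters are not in these windows. Among 32536 promoter windows of the same length 33.0% hold GGGCGG, 19.8% GGAAGT, 6.73% TGANTCA and 3.62% AACNNGTT, so the matches found are common ones.

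Among the 5 genes, Spint1 and Spint2 were the most alike over the 4 libraries, with a root mean square difference of log2 CPM of 0.230, followed by Prss8 and Spint1 at 0.234. F2rl1 was farthest from Prss8, at 1.06, and nearest to St14, at 0.608. For Spint1 the most similar of all genes were Dag1, for the matrix receptor dystroglycan, at 0.0103, Agtrap, which binds an angiotensin receptor, at 0.0108, and Pik3r4, a lipid kinase subunit, at 0.0127. For Spint2 they were Ppdpf at 0.0348, the endothelin receptor gene Ednrb at 0.0439 and Ilvbl at 0.0462. A stretch of Ppdpf matches another annotated gene elsewhere.

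Set against its inhibitors, the St14 transcript was most abundant in libraries with IL-17A. A ratio of 2 genes within a library does not depend on how libraries are scaled. The count ratio of St14 to Spint1 was 3.22 in Il17rc KO, 2.60 in Il17rd KO, 3.68 in IL-17A WT and 1.87 in untreated WT. That of St14 to Spint2 was 1.08, 0.788, 0.856 and 0.438 in the same order. Untreated WT was lowest for both ratios, while the highest was IL-17A WT with Spint1 and Il17rc KO with Spint2.

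In IL-17A WT relative to untreated WT the St14 to Spint1 ratio was 1.97 times as high (1.83 to 2.12, counting error only) and the St14 to Spint2 ratio 1.95 times (1.86 to 2.05). In Il17rc KO relative to IL-17A WT the St14 to Spint1 ratio was at 0.873 times (0.808 to 0.944) and the St14 to Spint2 ratio at 1.26 times (1.19 to 1.33). In Il17rd KO relative to IL-17A WT both were lower, at 0.706 times (0.655 to 0.761) and 0.921 times (0.876 to 0.969). Relative to untreated WT the St14 to Spint2 ratio was 2.46 times as high in Il17rc KO (2.33 to 2.59) and 1.80 times in Il17rd KO.

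Against its inhibitors, Prss8 was lowest in IL-17A WT. The count ratio of Prss8 to Spint1 was 0.395 in Il17rc KO, 0.382 in Il17rd KO, 0.291 in IL-17A WT and 0.456 in untreated WT, and that of Prss8 to Spint2 was 0.132, 0.116, 0.0676 and 0.107. Relative to untreated WT the Prss8 to Spint1 ratio was at 0.867 times in Il17rc KO (0.770 to 0.976) and 0.838 times in Il17rd KO (0.749 to 0.938), while the Prss8 to Spint2 ratio was at 1.24 times in Il17rc KO (1.11 to 1.38) and 1.08 times in Il17rd KO (0.981 to 1.198). The Prss8 to Spint1 ratio in IL-17A WT was at 0.638 times that in untreated WT (0.563 to 0.722), and it was 1.36 times as high as in IL-17A WT in Il17rc KO (1.19 to 1.56) and 1.31 times in Il17rd KO (1.15 to 1.498). The Prss8 to Spint2 ratio was 1.96 times (1.73 to 2.22) and 1.71 times (1.52 to 1.93) that of IL-17A WT in those knockouts.

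Of the 6 ratios formed within libraries, that between the proteases differed most for IL-17A WT against untreated WT. The count ratio of Prss8 to St14 was 0.123 in Il17rc KO, 0.147 in Il17rd KO, 0.0790 in IL-17A WT and 0.244 in untreated WT. It was 3.09-fold lower in IL-17A WT than untreated WT (2.75 to 3.46), and relative to IL-17A WT it was 1.56 times as high in Il17rc KO (1.38 to 1.76) and 1.86 times in Il17rd KO (1.65 to 2.10). In untreated WT the transcripts were about level per length, with St14 at 28.7 and Prss8 at 28.8 FPKM, while in IL-17A WT St14 was at 41.8 and Prss8 at 13.6 FPKM. The F2rl1 to St14 count ratio was 0.821, 0.286, 0.696 and 0.404 in Il17rc KO, Il17rd KO, IL-17A WT and untreated WT, and was 2.44-fold lower in Il17rd KO than in IL-17A WT (2.27 to 2.61).

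**Figure D4:**
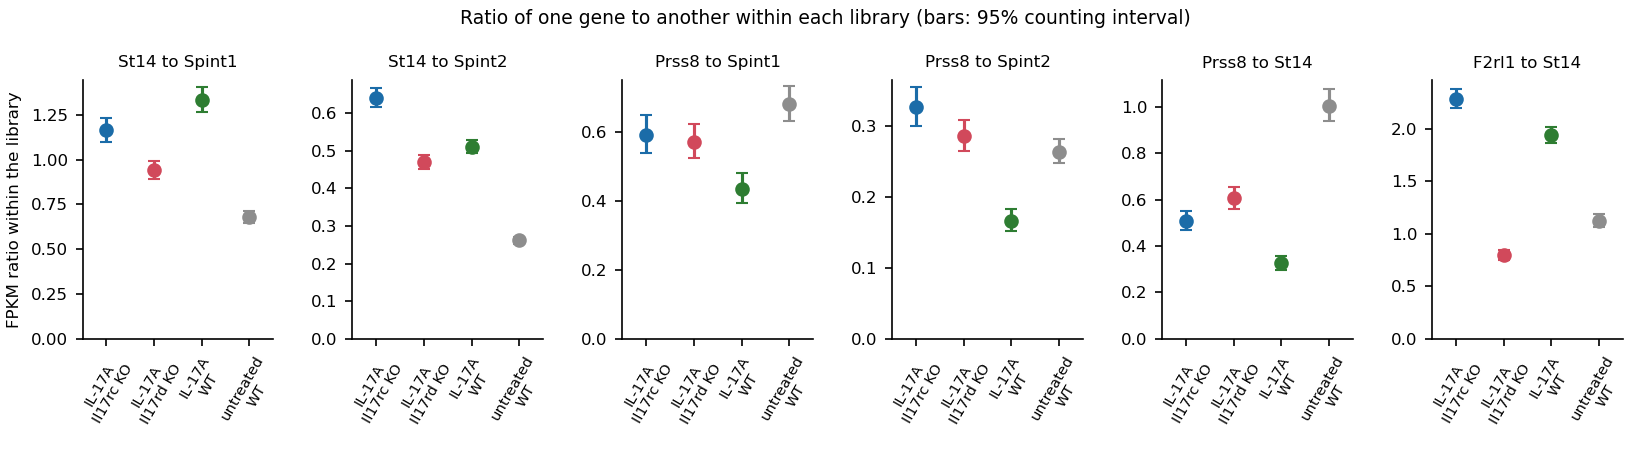
Ratio of one gene to another within each library, taken per length from FPKM (vertical axis, from 0), 1 point per library with 95% intervals from Poisson counting error. St14 to Spint1 is lowest in untreated WT, at 0.678, and Prss8 to St14 is lowest in IL-17A WT, at 0.326, where it is 1.01 in untreated WT.

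Summed per length, the proteases St14 and Prss8 together were at 49.9 FPKM in Il17rc KO, 51.2 in Il17rd KO, 55.5 in IL-17A WT and 57.5 in untreated WT. The inhibitors Spint1 and Spint2 together were at 80.0, 101.6, 113 and 152 FPKM. The protease sum was thus similar in the 4 libraries while the inhibitor sum was not, and the ratio of protease to inhibitor transcript was 0.624, 0.504, 0.489 and 0.378. F2rl1 made up 36.8% of the 5 genes' FPKM in Il17rc KO, 14.2% in Il17rd KO, 32.5% in IL-17A WT and 13.3% in untreated WT. Spint2 made up 25.1%, 38.0%, 32.8% and 45.4%. These are RNA levels, and the amount and activity of the proteins were not measured.

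The wider families were described from lists of genes by known function, with counts called over the tested members and the median log2 ratio. Of the other type II transmembrane serine proteases, the class of matriptase, 7 of 18 passed the filter. For IL-17A WT against untreated WT 1 was called higher and 3 lower, with a median of -0.71, where 8.97% of all genes were higher and 10.7% lower (median 0.0041). For Il17rc KO against IL-17A WT 4 were higher and 1 lower (median 1.25), and for Il17rd KO against IL-17A WT 3 were higher and 0 lower (median 0.67). All genes had 6.22% higher and 4.84% lower in the Il17rc KO comparison (median 0.042), and 6.27% higher and 3.73% lower in the Il17rd KO comparison (median 0.011). Tmprss4, a membrane protease of epithelia, had 1399 counts in Il17rc KO, 1943 in Il17rd KO, 461 in IL-17A WT and 3436 in untreated WT, an order it shares with Prss8 and not with St14.

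Of the other Prss genes 6 of 17 were tested, and those called went both ways. Prss22, for tryptase epsilon, had 250 counts in Il17rc KO, 155 in Il17rd KO, 1192 in IL-17A WT and 214 in untreated WT. Its log2 ratios were 2.44 for IL-17A WT against untreated WT, -2.28 for Il17rc KO against IL-17A WT and -3.00 for Il17rd KO against IL-17A WT, all called. Prss35, a secreted protein of the family, was the reverse, at 455, 216, 10 and 345 counts.

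Kallikreins, secreted serine proteases of the outer epidermis, include some that can cut PAR2. Of 13 genes 8 were tested: for IL-17A WT against untreated WT 0 were called higher, 5 lower and 3 neither way, with a median of -1.07, where 8.97% of all genes were called higher and 10.7% lower. For Il17rc KO against IL-17A WT 4 were higher and 0 lower (median 1.13), and for Il17rd KO against IL-17A WT 2 were higher and 0 lower (median 0.48), where 6.22% and 6.27% of all genes were higher and 4.84% and 3.73% lower in these knockouts. Klk5, which cuts desmosomal proteins and PAR2, had 710 counts in Il17rc KO, 562 in Il17rd KO, 174 in IL-17A WT and 928 in untreated WT. For Il17rc KO against Il17rd KO 1 was called higher and 1 lower, where 1.49% of all genes were higher and 2.75% lower. Klk6, at 2083, 858, 731 and 1441 counts, was the higher one, with a log2 ratio of 1.31, and Klk13, at 20, 52, 3 and 45 counts, the lower one, with -1.26. The list's summed level, 797, 494.8, 434 and 897 CPM, was lowest in IL-17A WT, as that of the differentiating markers was, and the part of those cells in it was not tested.

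**Figure D5:**
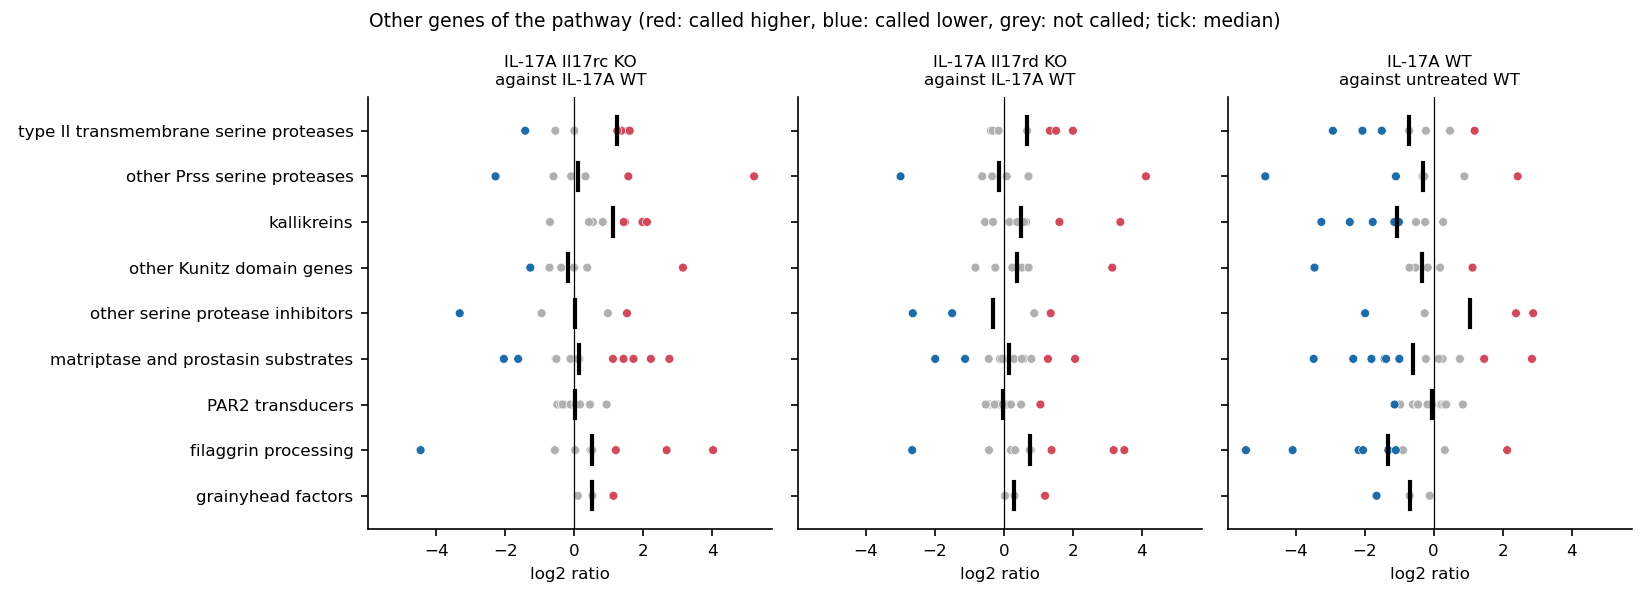
Log2 ratio of each tested gene of the lists (horizontal axis, 0 is no difference), 1 point per gene and a tick at the median, for Il17rc KO against IL-17A WT, Il17rd KO against IL-17A WT and IL-17A WT against untreated WT. Red points are called higher, blue lower and grey neither way. Kallikreins have medians of 1.13, 0.48 and -1.07 in these panels, and PAR2 transducers 0.037, -0.036 and -0.048.

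Other Kunitz domain genes, related to Spint1 and Spint2 by that domain, had 6 of 14 tested, with 1 called higher and 1 lower for IL-17A WT against untreated WT and a median of -0.35, where 8.97% of all genes were higher and 10.7% lower. The gene called higher was Aplp2, a relative of the amyloid precursor that is also a neighbour of St14 on the chromosome, with 11975 counts in Il17rc KO, 16707 in Il17rd KO, 28198 in IL-17A WT and 12641 in untreated WT. The gene called lower was Col6a3, a collagen chain of connective tissue, at a log2 ratio of -3.45. It moved with the fibroblast markers, of which 0 were called higher and 6 lower among 8 in that comparison, and the part of fibroblasts in it was not tested.

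Of other epidermal protease inhibitors 4 of 10 were tested, and those called went both ways. Slpi, a secreted inhibitor of leukocyte elastase, had 904 counts in Il17rc KO, 628 in Il17rd KO, 1696 in IL-17A WT and 223 in untreated WT. Spink5, whose product LEKTI blocks kallikreins, had 9536, 8643, 3213 and 12473 counts. For IL-17A WT against untreated WT Slpi was called higher and Spink5 lower, with log2 ratios of 2.89 and -1.99.

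Genes for known or proposed substrates of matriptase and prostasin numbered 14, of which 12 were tested. For IL-17A WT against untreated WT 2 were called higher and 6 lower, with a median of -0.61, where 8.97% of all genes were higher and 10.7% lower. Those higher were Epcam, an adhesion protein that matriptase cuts, and Plau, the plasminogen activator urokinase, which matriptase activates. Epcam had 4439 counts in Il17rc KO, 3521 in Il17rd KO, 13348 in IL-17A WT and 1812 in untreated WT, and Plau had 3555, 6859, 14249 and 5050. Flg, the gene of filaggrin, was the farthest on the lower side, at 3183, 2009, 456 and 5000 counts and a log2 ratio of -3.48.

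The subunits of the epithelial sodium channel, which prostasin can switch on, were lower in IL-17A WT than untreated WT. Scnn1a had 482 counts in Il17rc KO, 443 in Il17rd KO, 173 in IL-17A WT and 860 in untreated WT. Scnn1b had 180, 58, 36 and 128 counts and Scnn1g had 160, 70, 46 and 124. In Il17rc KO against Il17rd KO Scnn1b and Scnn1g were called higher, with log2 ratios of 1.63 and 1.20. They were the only calls among the 12 substrate genes there, where 1.49% of all genes were higher and 2.75% lower. All 3 channel genes were called higher in Il17rc KO than in IL-17A WT, at 1.43, 2.23 and 1.72, where 6.22% of all genes were. Scnn1a was also called higher in Il17rd KO than in IL-17A WT, at 1.28, where 6.27% of all genes were.

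Of the genes for filaggrin-like proteins and their processing 9 of 10 were tested. For IL-17A WT against untreated WT 1 was called higher and 6 lower (median -1.31), where 8.97% of all genes were higher and 10.7% lower. For each knockout against IL-17A WT 3 were higher and 1 lower, where 6.22% of all genes were higher and 4.84% lower in Il17rc KO, and 6.27% higher and 3.73% lower in Il17rd KO. Casp14, a protease of cornification that takes part in filaggrin breakdown, had log2 ratios of -2.18, 1.21 and 1.38 in these comparisons. The exception was Padi3, an enzyme that modifies filaggrin. It had 65 counts in Il17rc KO, 236 in Il17rd KO, 1430 in IL-17A WT and 318 in untreated WT. A stretch of Padi3 matches another annotated gene elsewhere, which can make its counts uncertain.

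Grhl1, Grhl2 and Grhl3 encode grainyhead factors, transcription factors of the epidermal barrier. Grhl1 had 2732 counts in Il17rc KO, 2903 in Il17rd KO, 1208 in IL-17A WT and 3730 in untreated WT. It was called lower in IL-17A WT than untreated WT and higher in each knockout than in IL-17A WT, with log2 ratios of -1.65, 1.14 and 1.19. Grhl2, at 1869, 1821, 1693 and 1792 counts, and Grhl3, at 2088, 1831, 1410 and 2236, were not called.

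Some annotated neighbours of the 5 genes were called where the genes themselves were not, and the reverse was also seen. Those named here are examples, and no count of calls over all neighbours is given. Next to Prss8, Prss36 had 51 counts in Il17rc KO, 59 in Il17rd KO, 53 in IL-17A WT and 63 in untreated WT. It was not called, while Prss8 was called lower in IL-17A WT than untreated WT. Next to Spint2, Ppp1r14a, a phosphatase inhibitor gene 7396 bases away, had 49, 84, 17 and 196 counts. It was called lower in IL-17A WT than untreated WT, with a log2 ratio of -3.41, as 10.7% of all genes were, and Spint2 was not called. Next to Spint1, Rhov, a small GTPase gene, had 341, 275, 157 and 286 counts. It was called higher in Il17rc KO than in IL-17A WT, with a log2 ratio of 1.07, as 6.22% of all genes were, while Spint1 was at 0.907 times.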

How the data were processed

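The data are 4 gene tables of RNA-seq libraries, 1 per group, each with a gene symbol, a count and an FPKM value. The counts are whole numbers per gene that the authors deposited without normalization. The FPKM values were made by the authors and deposited beside the counts, and were used for levels per length. Reads were handled with edgeR, HISAT2, Trim Galore 0.4.4 and featureCounts from Subread on build mm10, per the submitters' processing notes, and the sources used here give neither their order and settings nor the strand use and annotation. RNA was taken up in Trizol, per the labels' protocols. How reads shared by overlapping or duplicated genes were assigned can change their counts.

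TMM factors over the 4 libraries (edgeR 4.0.16 in R 4.3.3) were 1.01 for Il17rc KO, 1.04 for Il17rd KO, 0.984 for IL-17A WT and 0.963 for untreated WT. CPM are counts over the scaled sizes, and log2 ratios use a prior count of 2. With 1 library per group no test was made and no p-value is given. A gene was called at 2-fold or more where the ratio had an exact 95% binomial interval (conditional on the sum, Clopper-Pearson, scipy 1.17.1) that left out 1, among the 12934 genes averaging 1 CPM or more. Ratios of 2 genes within a library carry 95% intervals from the Poisson variance of log counts. Intervals cover counting error only.

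The 5 genes, the 17 gene lists and the comparisons were chosen with earlier results of these data known. Named are the 5 genes, Il17rc and Il17rd, up to 4 called genes of each list and comparison with the largest log2 ratios, all genes of lists of 5 or fewer, the 3 genes most like each of the 5, and their neighbours. Not all genes selected by this rule are printed, and Ddx3y and Xist were named beside it. Gene positions and transcripts come from GENCODE M21 on GRCm38, and promoter windows from RefSeq. Transcripts were compared with BLAST 2.17.0, a match being at 95% identity over 50% of the length of either gene. Alternatives were other scalings, no filter, other fold thresholds and FPKM.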

Additional observations from a re-analysis of the deposited data

Results flagged for a closer look

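Because both knockouts were compared with the same IL-17A WT library, a value on opposite sides of 1 in them was looked at again, with 1 library on each side and the difference itself not tested. Spint1 was at 0.907 times its IL-17A WT level in Il17rc KO and at 1.08 times in Il17rd KO, and a scaling by upper quartiles brought the second within counting error. The count ratio of St14 to Spint2 was 1.26 times that of IL-17A WT in Il17rc KO and 0.921 times in Il17rd KO. The count ratio of F2rl1 to St14 was 1.18 times that of IL-17A WT in Il17rc KO and 0.411 times in Il17rd KO.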

How the results depend on the processing

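The 30 ratios of the 5 genes were recomputed under 6 alternatives of scaling, unit and prior count. At the 2-fold threshold all 180 values had the same call and direction as reported, 12 lay outside the reported counting interval, and the largest factor between a ratio and its alternative was 1.08. Part of this agreement could not have come out otherwise. The deposited FPKM imply the same scaled sizes as used here, so their ratios repeat the reported ones. TMM factors from the pair compared gave the same ratios against untreated WT, and a prior count of 2 is small beside these counts. The threshold itself decides most calls of the 5 genes: of 6 calls at 2-fold, 1 is left at 3-fold, that of F2rl1 for Il17rd KO against IL-17A WT, and at 1.5-fold there are 9, with Spint2 lower for Il17rc KO against IL-17A WT and for Il17rd KO against untreated WT, and Prss8 lower for Il17rc KO against untreated WT. These thresholds for the 5 genes, and the fibroblast sum without Vim, were added after the data were seen. Counts of genes called depend on the fold threshold: at 1.5-fold and 3-fold they were 4753 and 1134 for IL-17A WT against untreated WT (2544 at 2-fold), 2854 and 619 for Il17rc KO against IL-17A WT (1430), 2637 and 591 for Il17rd KO against IL-17A WT (1294), 1579 and 196 for Il17rc KO against Il17rd KO (549), 4101 and 733 for Il17rc KO against untreated WT (1845), and 2793 and 401 for Il17rd KO against untreated WT (1126). Taken per length from FPKM, within-library ratios change by the ratio of transcript lengths, the same in each library. In Il17rc KO, Il17rd KO, IL-17A WT and untreated WT these were 1.16, 0.942, 1.33 and 0.678 for St14 to Spint1, 0.642, 0.470, 0.510 and 0.262 for St14 to Spint2, 0.591, 0.571, 0.435 and 0.681 for Prss8 to Spint1, 0.326, 0.285, 0.166 and 0.263 for Prss8 to Spint2, 0.507, 0.606, 0.326 and 1.01 for Prss8 to St14, and 2.29, 0.796, 1.94 and 1.12 for F2rl1 to St14. In the gene lists, over 2784 pairings of a gene, a comparison and another scaling, 19 calls changed and 0 were reversed. Each call enters with every scaling, and TMM factors from the pair compared could not change calls against untreated WT. No paired analysis was possible because each group has 1 library, and for the same reason no replicate could be left out. Counting error is small at these depths, and the spread between cultures is the limit that these data leave unmeasured.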
